A study of Mus musculus with 2 samples.

Results

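The 9 genes described here, *Mbp*, *Mobp*, *Mag*, *Mog*, *Mal*, *Cnp*, *Cldn11*, *Opalin* and *Ermn*, encode proteins of the myelin sheath and of the mature oligodendrocyte that makes it. They were chosen by name, as a list of compact myelin and mature oligodendrocyte genes, and all 9 were found among the 25556 genes counted by single-nuclei RNA sequencing of mouse brainstem. Brainstem nuclei of 1 wild-type (WT) mouse and of 1 heterozygous (HET) *Scn1a* knock-in mouse were compared. Both animals were untreated females on a C57Bl6 background at postnatal day 41. The HET animal carried 1 copy of the *Scn1a* A1783V missense allele, made by crossing a floxed stop *Scn1a* A1783V male to a Sox2-Cre female, and the WT animal came from littermates of such mice. Sox2-Cre recombines floxed alleles in the early embryo, so the allele is not limited to one cell type. The sources used here do not say whether the WT animal carried the Cre, and the counts per gene cannot show the missense allele.

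Myelin is a spiral of oligodendrocyte membrane around an axon, and it lets action potentials jump between nodes. In its compact part the cytoplasmic faces of the membrane are held together by basic proteins such as MBP, while tetraspan proteins sit in the membrane itself and adhesion proteins face the axon or the outside of the sheath. The brainstem carries many long myelinated tracts, and its oligodendrocytes are therefore a large class of nuclei. Transcription of these genes in maturing oligodendrocytes is driven by the factors SOX10 and MYRF.

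The stretches just before the starts of *Mobp*, *Opalin* and *Cnp* are shown because these genes differed most in what follows: *Mobp* was the member with the highest ratio of HET to WT, *Opalin* the one whose level changed most between oligodendrocyte subclusters, and *Cnp* the one with the lowest ratio. Each holds the 250 bases before the start of the gene in RefSeq on the build GRCm38.p6, read 5′ to 3′ on the strand of the gene. Capitals mark the letters ACAAAG or ACAATG, which SOX factors bind, and CTGGCAC or CTGGTAC, which MYRF binds, on either strand. The positions are chr9:120149492-120149741 on the plus strand for *Mobp*, chr19:41077114-41077363 on the minus strand for *Opalin* and chr11:100574689-100574938 on the plus strand for *Cnp*.
Mobp: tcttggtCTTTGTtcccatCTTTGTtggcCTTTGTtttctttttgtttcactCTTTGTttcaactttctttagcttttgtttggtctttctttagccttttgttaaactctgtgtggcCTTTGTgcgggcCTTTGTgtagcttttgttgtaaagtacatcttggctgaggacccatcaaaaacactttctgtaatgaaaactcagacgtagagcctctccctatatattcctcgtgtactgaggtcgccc
Opalin: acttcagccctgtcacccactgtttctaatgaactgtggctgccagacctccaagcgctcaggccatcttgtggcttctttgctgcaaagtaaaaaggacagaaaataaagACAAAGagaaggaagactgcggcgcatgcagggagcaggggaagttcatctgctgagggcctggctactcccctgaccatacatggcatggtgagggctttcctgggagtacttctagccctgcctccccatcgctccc
Cnp: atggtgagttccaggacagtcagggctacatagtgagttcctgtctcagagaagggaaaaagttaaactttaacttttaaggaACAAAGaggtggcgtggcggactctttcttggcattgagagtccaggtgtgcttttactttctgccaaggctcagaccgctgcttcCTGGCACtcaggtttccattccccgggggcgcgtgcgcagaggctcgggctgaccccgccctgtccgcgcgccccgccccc

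The *Mobp* stretch holds ACAAAG 6 times, all on the minus strand. It was the 1 stretch of 32536 RefSeq gene starts searched with at least 6 SOX motifs (0.00307%), whereas 25.0% of all stretches held at least 1. A MYRF motif was found in 5.94% of all stretches. Of the 8 members with an entry in RefSeq, 5 held a SOX motif (*Mobp*, *Opalin*, *Cnp*, *Mag* and *Ermn*) and 3 a MYRF motif (*Cnp*, *Mag* and *Mog*). Both kinds were found before *Cnp* and *Mag*, and neither before *Mal* and *Cldn11*. A match gives the letters only, and whether a factor binds there was not measured. *Mbp* was not searched.

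The authors' clusters placed 1767 of 9259 WT nuclei (19.1%; 95% Clopper-Pearson interval 18.3 to 19.9) and 2382 of 9022 HET nuclei (26.4%; 25.5 to 27.3) in the oligodendrocyte cluster. These nuclei held 8.31% of all WT and 11.9% of all HET unique molecular identifiers (UMIs), each of which stands for 1 captured RNA molecule. Oligodendrocyte nuclei held a median of 2738 UMIs in WT and 2854 in HET. A second label deposited by the authors also named 99.6% of them oligodendrocytes, and all 9 genes peaked in this cluster among the 12 clusters with 30 or more nuclei in both libraries. The authors' finer clustering split the cluster into 4 subclusters, numbered 2, 6, 7 and 8, with only 3 nuclei elsewhere. Subcluster 2 held 768 WT and 789 HET nuclei, and subcluster 7 held 133 and 730. Subcluster 6 was almost wholly HET (39 WT and 827 HET nuclei), whereas subcluster 8 was almost wholly WT (825 and 35).

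With 1 library per genotype no difference has a replicate check, and genotype, animal, library and preparation cannot be told apart. Intervals below are at 95%, are exact for the counts and cover counting error only. Levels are UMIs summed over the nuclei of a set per 1000000 UMIs of that set (CPM). Ratios of HET to WT are on the log2 scale, and a ratio past 0.5 in either direction is called. The HET library also differed from the WT library in oligodendrocyte nuclei as a whole. The median share of ribosomal protein UMIs was 0.576% in HET and 1.02% in WT, and that of mitochondrial UMIs was 0.867% and 0.675%. The median log2 ratio of the 8036 genes with at least 200 UMIs in this cluster was -0.096, so a gene at 0 stood slightly above the middle of all genes. The 2 libraries shared 23 barcodes, none of which lay in the oligodendrocyte cluster of both.

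In the oligodendrocyte cluster *Mobp*, *Cldn11*, *Mbp* and *Ermn* were higher in HET and *Cnp*, *Mal*, *Mog*, *Opalin* and *Mag* were lower, *Mag* only before the median of all genes was set to 0. The 9 genes together took 0.752% of the UMIs of these nuclei in WT and 0.859% in HET. *Mobp* was the 1 member past 0.5 upward, where 7.11% of all genes were called, and none was past 0.5 downward, where 15.5% were called. The 4 of 9 members higher in HET compare with 38.9% of all genes. The median over the 9 members was -0.08, close to the median of all genes.

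*Mbp* encodes myelin basic protein, which zips the cytoplasmic membrane faces together and without which compact myelin does not form. The gene lies on chromosome 18 from 82475146 to 82585637 on the plus strand (GRCm38, GENCODE vM21), and its 110 kb include the longer Golli transcripts, which the counts do not separate. Its level was 3172 CPM in WT (interval 3127 to 3218) and 4023 CPM in HET (3979 to 4067), giving a log2 ratio of 0.34 (0.32 to 0.37). The intervals did not overlap. *Mbp* was higher in HET in each of the subclusters, with 3401 against 4502 CPM in subcluster 2 and 3376 against 3867 CPM in subcluster 7.

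*Mobp* encodes myelin-associated oligodendrocyte basic protein, a second abundant basic protein of compact central myelin. It spans 31.8 kb of chromosome 9, from 120149707 to 120181484 on the plus strand. Its level was 634 CPM in WT (614 to 655) and 1065 CPM in HET (1043 to 1088), giving a log2 ratio of 0.75 (0.69 to 0.81) or 1.68 times the WT level. The share of nuclei with a *Mobp* UMI, with every nucleus thinned to 1000 UMIs, was 44.3% in WT and 62.3% in HET (77.5% and 90.7% unthinned). In astrocytes with agreeing labels the thinned share was 8.06% and 14.6%, so the level in oligodendrocytes stood well above that background. *Mobp* was higher in HET in all 4 subclusters. In subcluster 2 it was 657 CPM in WT and 1098 CPM in HET. In subcluster 6 it was 620 and 937 CPM, in subcluster 7 it was 737 and 1122 CPM, and in subcluster 8 it was 562 and 949 CPM. The ratio lay between 0.60 and 0.76 over the subclusters. For the pair that came almost wholly from 1 library each, its intervals were wide. They ran from 0.22 to 1.00 in subcluster 6, with 59 UMIs in WT, and from 0.42 to 1.07 in subcluster 8, with 85 UMIs in HET. *Gm38642*, a transcript on the same strand that overlaps *Mobp*, held 23 UMIs in WT and 36 in HET in these nuclei, against 3704 and 8404 for *Mobp*.

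*Mal* and *Cldn11* encode membrane-spanning proteins of the sheath. MAL is a raft-associated proteolipid that takes part in sorting membrane, and its gene spans chromosome 2 from 127633226 to 127656695 on the minus strand. *Mal* was lower in HET, at 559 CPM in WT (540 to 578) and 471 CPM in HET (456 to 487), giving a log2 ratio of -0.25 (-0.31 to -0.18). Claudin-11 forms the tight junctions that seal the edges of the myelin spiral, and *Cldn11* spans chromosome 3 from 31149920 to 31164324 on the plus strand. *Cldn11* was higher in HET, at 260 CPM in WT (247 to 274) and 348 CPM in HET (335 to 361), giving a log2 ratio of 0.42 (0.33 to 0.51). Neither pair of intervals overlapped, and the 2 genes moved in opposite directions. The ratio of *Cldn11* was 0.40 in subcluster 2 and 0.48 in subcluster 7.

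*Mag* and *Mog* encode adhesion proteins on the 2 surfaces of the sheath. Myelin-associated glycoprotein sits on the innermost wrap and binds the axon, and *Mag* spans chromosome 7 from 30899176 to 30914873 on the minus strand. *Mag* was 1120 CPM in WT (1093 to 1147) and 1059 CPM in HET (1036 to 1082), giving a log2 ratio of -0.08 (-0.13 to -0.03) that became 0.02 when the median of all genes was set to 0. Myelin oligodendrocyte glycoprotein sits on the outermost wrap, and *Mog* spans chromosome 17 from 37010743 to 37023398 on the minus strand. *Mog* was 987 CPM in WT (962 to 1013) and 871 CPM in HET (851 to 892), giving a log2 ratio of -0.18 (-0.23 to -0.13). Set against the median of all genes, *Mag* was thus level between the libraries and *Mog* stood at -0.08.

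*Cnp*, *Ermn* and *Opalin* are expressed by mature oligodendrocytes but belong to the cytoplasm or to the cell surface. CNPase keeps cytoplasmic channels through the sheath open, and *Cnp* spans chromosome 11 from 100574904 to 100591729 on the plus strand. *Cnp* was 197 CPM in WT (186 to 209) and 163 CPM in HET (154 to 172), the lowest ratio of the members at -0.27 (-0.39 to -0.16). Ermin is a cytoskeletal protein of the late-stage oligodendrocyte, and *Ermn* spans chromosome 2 from 58045113 to 58052864 on the minus strand. *Ermn* was 342 CPM in WT (328 to 358) and 366 CPM in HET (353 to 380), but although the ratio of 0.10 (0.01 to 0.18) lay above 0, the intervals of the levels overlapped. *Opalin* is a glycoprotein of the oligodendrocyte surface, and its gene spans chromosome 19 from 41061710 to 41077113 on the minus strand. *Opalin* was 246 CPM in WT (234 to 260) and 222 CPM in HET (212 to 233), giving a log2 ratio of -0.15 (-0.25 to -0.05). *Cnp* overlaps *Dnajc7* and *Ermn* overlaps *Galnt5*, each on the opposite strand. *Dnajc7* had a log2 ratio of 0.15 and *Galnt5* one of 0.55 in these nuclei. The sources used here do not say whether strand was used in counting, and without it reads of a gene and of its opposite-strand partner cannot be told apart.

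**Figure D1:**
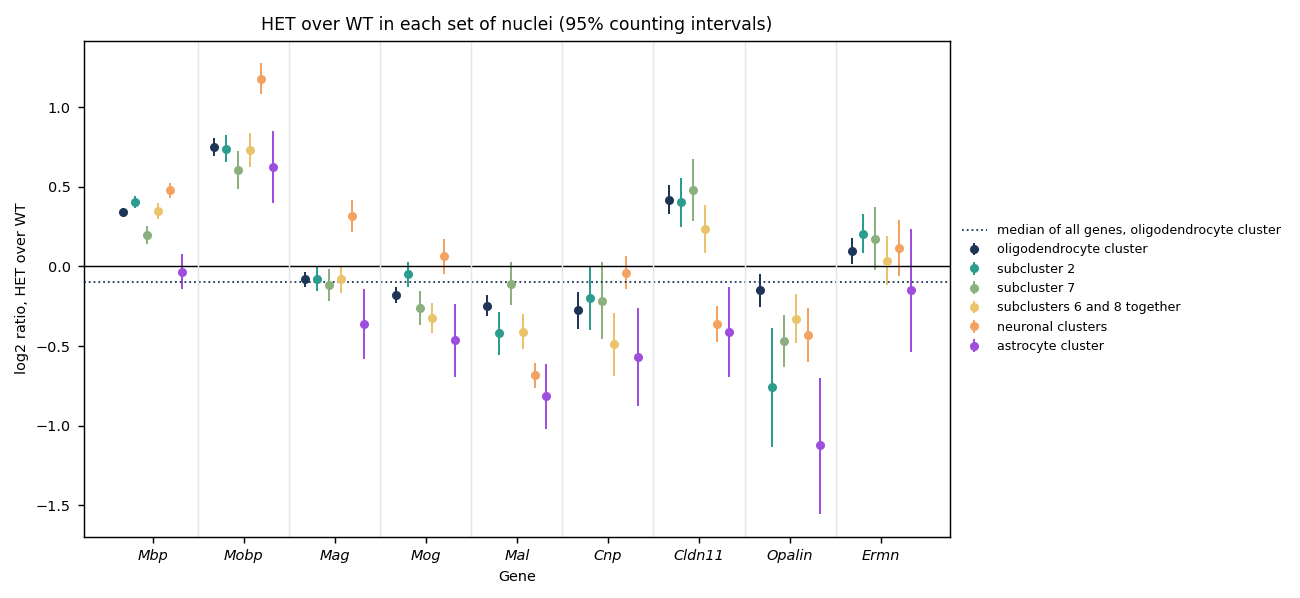
Log2 ratio of HET to WT (vertical axis) of each gene (horizontal axis) in 6 sets of nuclei. Points are ratios of summed UMIs per 1000000, bars their exact 95% counting intervals, and the dotted line the median of all genes in the oligodendrocyte cluster at -0.096. All points of *Mobp* lie above 0 and all points of *Mal* and *Opalin* below it.

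The same ratios were read within subclusters, which also differed in depth between the libraries, with a median of 4627 UMIs per nucleus in WT and 3371 in HET in subcluster 7. In subcluster 2, 1 member was past 0.5 upward (*Mobp*; 6.16% of 4548 genes) and 1 downward (*Opalin* at -0.76; 12.7% of genes). The *Opalin* level behind that ratio was not told from background, as its shares of nuclei show further on. In subcluster 7, *Mobp* at 0.61 was past 0.5 upward (6.8% of 3164 genes) and none was past it downward (7.05%). Subclusters 6 and 8 were joined because each came almost wholly from 1 library, a choice made after seeing the data. Together they gave 1 member past 0.5 upward (*Mobp* at 0.73; 7.42% of 3665 genes) and none downward (13.6%), with *Cnp* the lowest at -0.49. In each of these 3 sets *Mbp*, *Mobp*, *Cldn11* and *Ermn* were higher in HET and the other 5 members lower, the same split as in the whole cluster. Read apart, subclusters 6 (39 WT nuclei) and 8 (35 HET nuclei) did not keep this split. In subcluster 6, 7 members were higher, with *Mag*, *Mog* and *Cnp* among them, and 2 lower. In subcluster 8, 3 members were higher and 6 lower, *Ermn* among the lower. Intervals lay above 0 for 2 members in subcluster 6 and 3 in subcluster 8, and below 0 for none. The median of all genes was -0.02 in subcluster 6 and -0.07 in subcluster 8. The shares of all genes that would go beside these counts were not taken, so the counts are not read as a result about the members. Set against the median of all genes, *Mog* in subcluster 2 was level at 0.00. Intervals reached 0 for *Mog* and *Cnp* in subcluster 2 and for *Mal*, *Cnp* and *Ermn* in subcluster 7. In subclusters 6 and 8 joined, those of *Mag* and *Ermn* did.

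*Opalin* separated subcluster 2 from the other oligodendrocytes far more than it separated the libraries. It was 58.9 CPM in WT (50.1 to 68.7) and 34.9 CPM in HET (28.4 to 42.4) in subcluster 2. In subcluster 6 it was 347 CPM in WT and 302 CPM in HET, in subcluster 7 it was 478 and 346 CPM, and in subcluster 8 it was 384 and 357 CPM. The level in subcluster 2 was as low as in the astrocyte cluster, which was at 62.0 CPM in WT and 28.4 CPM in HET. Subcluster 7 stood 8.13 times higher than subcluster 2 in WT and 9.93 times higher in HET. After thinning to 1000 UMIs, 5.65% of WT and 3.47% of HET nuclei of subcluster 2 held an *Opalin* UMI (15.8% and 10.7% unthinned). In subcluster 7 the thinned share was 38.6% and 28.2% (85.7% and 63.2% unthinned). In astrocytes with agreeing labels it was 4.47% and 2.28%, with median depths of 2896 and 3316 UMIs beside 3123 and 3360 in subcluster 2. The intervals of the thinned shares overlapped between subcluster 2 and astrocytes in both libraries, so *Opalin* in subcluster 2 was not told from background. The authors clustered these same nuclei on their expression, so the contrast is a description without a test.

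*Mal* was also lowest in subcluster 2, with a smaller range. It was 379 CPM in WT and 283 CPM in HET in subcluster 2, and between 560 and 753 CPM in the other subclusters. Subcluster 7 was 1.68 times subcluster 2 in WT and 2.09 times in HET. *Cnp* was also lower in subcluster 2 (154 CPM in WT, 135 CPM in HET) than in subcluster 7 (212 and 183 CPM). *Ermn* ran the other way, at 368 and 424 CPM in subcluster 2 and 290 and 328 CPM in subcluster 7. *Mag* lay between 924 and 1164 CPM in all 8 combinations of subcluster and library. *Mog* was 948 CPM in WT and 917 CPM in HET in subcluster 2 and 1046 and 872 CPM in subcluster 7, so that subcluster 2 was below subcluster 7 in WT (log2 ratio of subcluster 2 to 7 of -0.14, interval -0.25 to -0.03), whereas in HET the interval reached 0 (0.07; -0.01 to 0.15). The change in shares of subclusters enters any ratio over the whole cluster, because subcluster 2 held 43.5% of WT and 33.1% of HET oligodendrocyte nuclei. With the subclusters weighted equally, the ratio of *Opalin* in the cluster was -0.29 in place of -0.15.

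**Figure D2:**
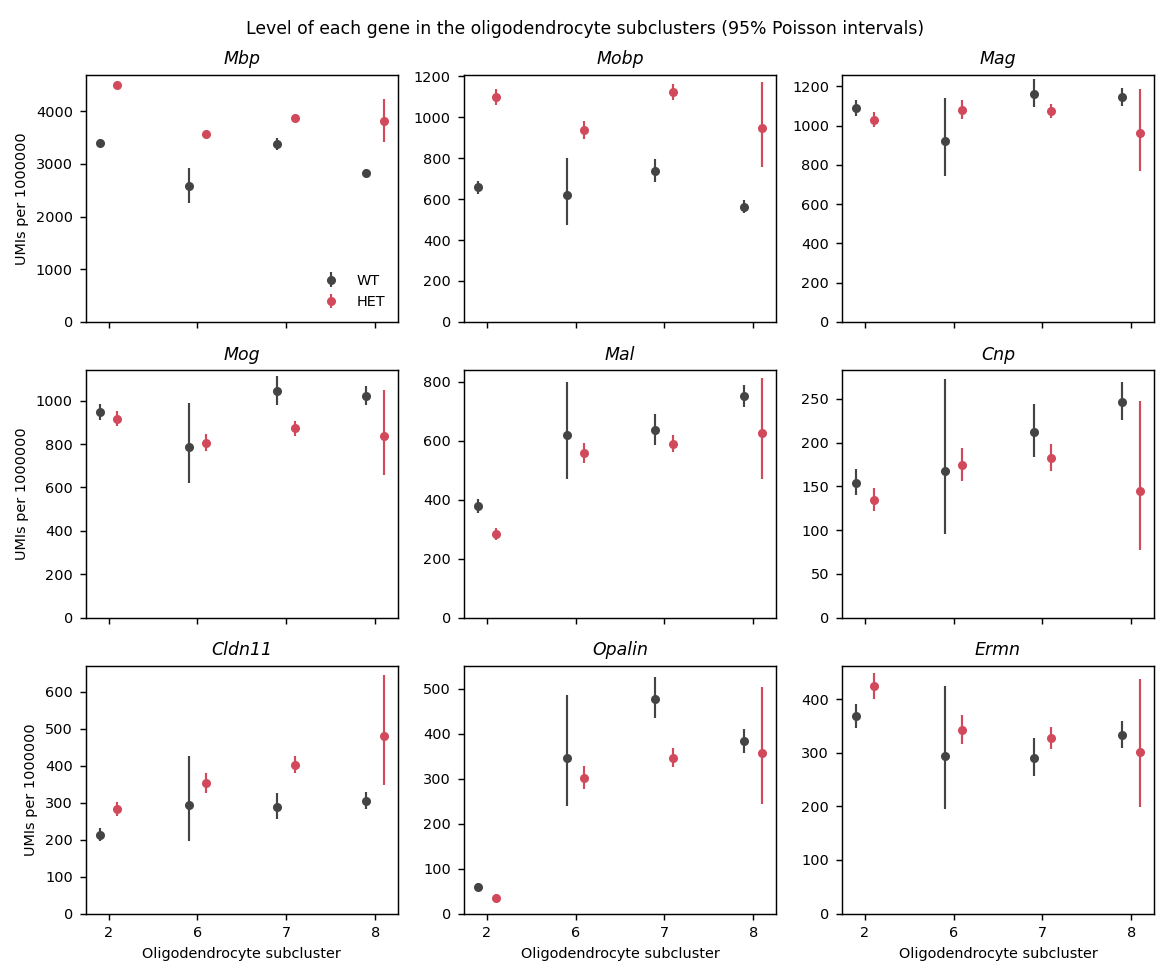
Level of each gene in UMIs per 1000000 (vertical axis, from 0) in oligodendrocyte subclusters 2, 6, 7 and 8 (horizontal axis) of the WT (dark) and HET (red) library, with exact 95% Poisson intervals. *Opalin* is between 34.9 and 58.9 in subcluster 2 and between 302 and 478 elsewhere, and *Mobp* is higher in HET in all 4 subclusters.

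Further genes of the lists, named after their values were seen, also set subcluster 2 apart. *Enpp6*, a marker of newly formed oligodendrocytes, was 436 CPM in WT and 469 CPM in HET in subcluster 2 and between 72.9 and 118 CPM in the others. *Gpr17*, *Bmp4*, *Tcf7l2* and *Bcas1*, the other markers of newly differentiating cells, were not read by subcluster. Genes listed for the mature oligodendrocyte went both ways. *Klk6*, a protease of that list, was 167 and 123 CPM in subcluster 2 and at most 44.7 CPM elsewhere. *Hapln2* was 688 and 456 CPM in subcluster 2 and between 214 and 438 CPM elsewhere. *Ptgds* was 1731 and 812 CPM in subcluster 2 and at least 2113 CPM elsewhere. *Il33*, which encodes an alarmin cytokine, was 41.2 and 17.4 CPM in subcluster 2 and at least 275 CPM elsewhere. These values do not place subcluster 2 at a stage of the lineage.

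Outside oligodendrocytes the 9 genes were found at lower levels in each of the 11 other clusters with 30 or more nuclei in both libraries. Their summed level was 7518 CPM in WT and 8589 CPM in HET oligodendrocytes, 1545 and 1323 CPM in astrocytes, and 316 and 334 CPM in neuron.1, the largest neuronal cluster. The size of this drop differed between genes. As a percentage of its own oligodendrocyte level, *Mag* was at a median of 5.68% over the clusters in WT and 6.65% in HET. *Mbp* was at 10.5% and 9.08%, and *Mog* at 6.91% and 7.07%. *Cnp* was the gene least restricted to oligodendrocytes, at 32.3% and 19.2%. *Cldn11* was at 28.9% and 11.4%, and *Mal* at 22.7% and 14.0%. In the endothelial cluster of WT, *Mal* reached 75.2% of its oligodendrocyte level (420 CPM), beside 44.1% in HET (208 CPM). The second label agreed for 161 of 222 WT and 48 of 122 HET nuclei of that cluster. In agreeing nuclei the summed level of the 9 genes was 1218 CPM in WT and 986 CPM in HET, beside 1614 and 1504 CPM in the whole cluster. The members therefore did not drop by 1 common factor from oligodendrocytes to the other clusters of a library. Whether the other clusters differed among themselves in this was not tested.

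The share of all UMIs of a gene that lay in the oligodendrocyte cluster differed accordingly. It was 72.9% in WT and 77.5% in HET for *Mag* and 66.0% and 73.8% for *Mbp*. For *Cnp* it was 35.8% and 43.1%, with 50.3% and 47.5% in neuronal clusters. For *Mal* it was 40.8% and 58.8%. Neuronal clusters thus held more of the *Cnp* UMIs than oligodendrocytes did in both libraries, while most *Mag* UMIs lay in oligodendrocytes. In WT, but not in HET, neuronal clusters also held more of the *Mal* (44.2%) and *Cldn11* (44.0%) UMIs. These clusters held most UMIs of each library (59282694 of 70301390 in WT, 53272561 of 66176778 in HET). The *Cnp* level was lower in them, at 27.3 CPM in WT and 26.5 CPM in HET, beside 197 and 163 CPM in oligodendrocytes.

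**Figure D3:**
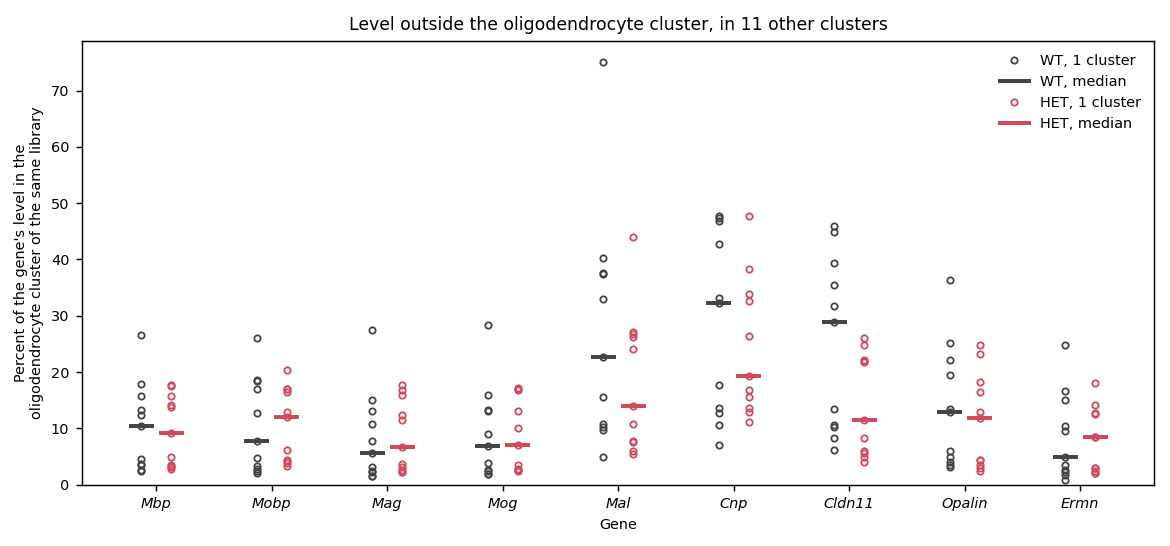
Level of each gene (horizontal axis) in 11 other clusters, as a percentage of its level in the oligodendrocyte cluster of the same library (vertical axis, from 0). Each circle is 1 cluster of the WT (dark) or HET (red) library and each bar the median, which for *Cnp* is 32.3% in WT and 19.2% in HET and for *Mag* 5.68% and 6.65%.

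Some nuclei of other clusters carried the oligodendrocyte label or held high levels of *Mbp*. In the microglia cluster the second label named 45 WT and 34 HET nuclei oligodendrocytes, and these held *Mbp* at 2536 and 2792 CPM, with a median of 5372 and 5956 UMIs per nucleus. In nuclei of that cluster whose labels agreed (41 WT and 67 HET), *Mbp* was 562 and 781 CPM. The small cluster neuron.9 (35 WT and 2 HET nuclei) held *Mbp* at 1911 CPM in WT, and 13 of its WT nuclei carried the oligodendrocyte label. Those 13 held *Mbp* at 1690 CPM, *Mag* at 18.9% of its oligodendrocyte level and *Cnp* at 304%. The 21 WT nuclei labelled neurons held *Mbp* at 2172 CPM, with *Mag* at 11.9% and *Cnp* at 242%. The members in neuron.9 thus did not keep the proportions of oligodendrocytes under either label. Nuclei of these kinds are a small part of each library and lie outside the oligodendrocyte comparison.

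*Mobp* was higher in HET in all 12 clusters with 30 or more nuclei in both libraries, where 2.56% of 9793 genes were higher in every cluster. Its log2 ratio ran from 0.14 in the microglia cluster to 1.47 in neuron.7, with a median of 1.12. *Mal* was lower in HET in all 12 clusters, where 6.85% of genes were lower in every cluster. Its ratio ran from -1.02 in the endothelial cluster, where labels often disagreed, to -0.10 in neuron.4. Both counts were the same when the median of all genes was set to 0 in each cluster, but the 2.56% and 6.85% are for ratios without that shift. Clusters of 1 library share its preparation and are not replicates. *Opalin* was lower in HET in 11 clusters, the exception being neuron.5, and in 10 with the medians set to 0. *Cldn11* was lower in 10 clusters, the exceptions being oligodendrocytes and neuron.5, and in 9 with the medians set to 0. *Mbp* was higher in 9 of 12 clusters, and in 11 with the medians set to 0. It was lowest in the microglia cluster at -0.27, whereas in microglia with agreeing labels it was 562 CPM in WT and 781 CPM in HET.

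**Figure D4:**
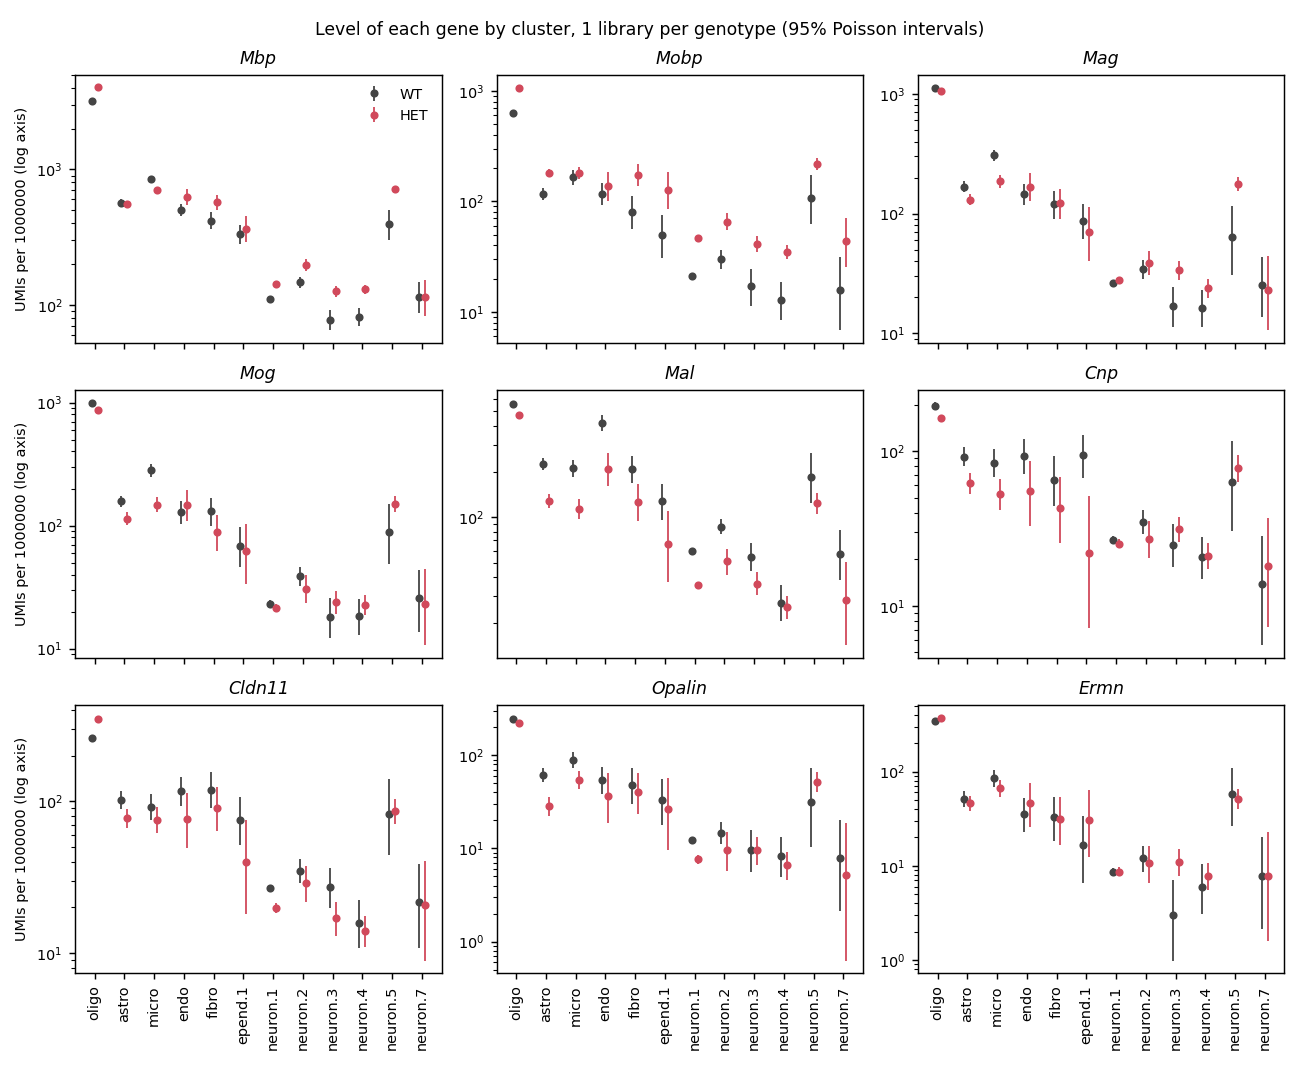
Level of each gene in UMIs per 1000000 (vertical log axis) in the 12 clusters with 30 or more nuclei in both libraries (horizontal axis) of the WT (dark) and HET (red) library, with exact 95% Poisson intervals. The oligodendrocyte cluster is highest for every gene, and *Mobp* is higher in HET and *Mal* lower in HET in all 12.

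In the sum of the neuronal clusters, *Mobp* was 22.0 CPM in WT (20.8 to 23.2) and 49.8 CPM in HET (47.9 to 51.7), giving a log2 ratio of 1.18 (1.08 to 1.28). It was the 1 member past 0.5 upward (7.46% of 15352 genes). *Mal* was 59.6 CPM in WT and 37.1 CPM in HET, a ratio of -0.68 (-0.76 to -0.60), and the 1 member past 0.5 downward (15.5%). In astrocytes 8 of 9 members were lower in HET, where 54.6% of all genes were lower. The intervals of *Mbp* (-0.03; -0.14 to 0.08) and *Ermn* (-0.15; -0.53 to 0.24) reached 0, and those of the other 6 lay below it. The share of all genes with an interval below 0 was not taken. *Mobp* at 0.62 was past 0.5 upward there (6.49% of 4222 genes), and *Opalin* at -1.12, *Mal* at -0.82 and *Cnp* at -0.57 were past 0.5 downward (13.9%). Set against the median of all genes, *Mbp* was level in astrocytes at 0.01. Where the UMIs in cells that make no myelin came from was not tested.

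Over all nuclei 7 of 9 members were higher in HET, where 38.3% of all genes were higher. The median log2 ratio of the members was 0.31, beside -0.10 for all 16347 genes. With the median of all genes set to 0, 8 members were higher, but the 38.3% is for ratios without that shift. *Mobp* went from 79.5 CPM in WT to 180 CPM in HET, a ratio of 1.18, and *Mbp* from 400 to 649 CPM, a ratio of 0.70. Both were past 0.5 upward (7.87% of genes), and no member was past it downward (16.8%). *Mal* was lower at -0.25. *Opalin*, counted as higher at 0.06 (-0.02 to 0.14), and *Cnp*, counted as lower at -0.02 (-0.09 to 0.05), had intervals that reached 0. The larger share of oligodendrocyte nuclei in HET enters these values. With every cluster given the same weight in both libraries, 4 members were higher and 5 lower, and the median was -0.06. *Mag* and *Mog* then changed from higher to lower in HET and *Opalin* stood at -0.31, whereas *Mobp* remained higher at 0.81 and *Mbp* at 0.33. In a sum over all nuclei, as in bulk tissue, more oligodendrocytes and more RNA per oligodendrocyte cannot be told apart.

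Gene span moved with the ratio of HET to WT across all genes of the oligodendrocyte cluster. Spans were known for 7957 of 8036 genes. The median log2 ratio was -0.48 for the 1172 genes under 10 kb, -0.26 for 1235 genes of 10 to 20 kb, -0.13 for 2348 genes of 20 to 50 kb, -0.05 for 1490 genes of 50 to 100 kb and 0.12 for 1712 genes over 100 kb. Its part in the members' ratios was not tested, so their values are set beside genes of like span. *Ermn* (7.75 kb, ratio 0.10), *Cldn11* (14.4 kb, 0.42) and *Mobp* (31.8 kb, 0.75) stood above the 75th percentile of their span range, which was -0.18, -0.02 and 0.07. *Mbp* at 0.34 was just under the 75th percentile of the longest range (0.35). *Mag*, *Mog*, *Opalin* and *Cnp*, all between 10 and 20 kb, lay between the 25th percentile of -0.50 and the 75th of -0.02. *Mal*, at -0.25 in a range with a median of -0.13, lay within the middle of its range as well. In all, 7 of 9 members were above the median of genes of their span and none was under the 25th percentile. *Mag*, *Mog* and *Opalin*, though lower in HET, thus stood above the middle of genes of their span.

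**Figure D5:**
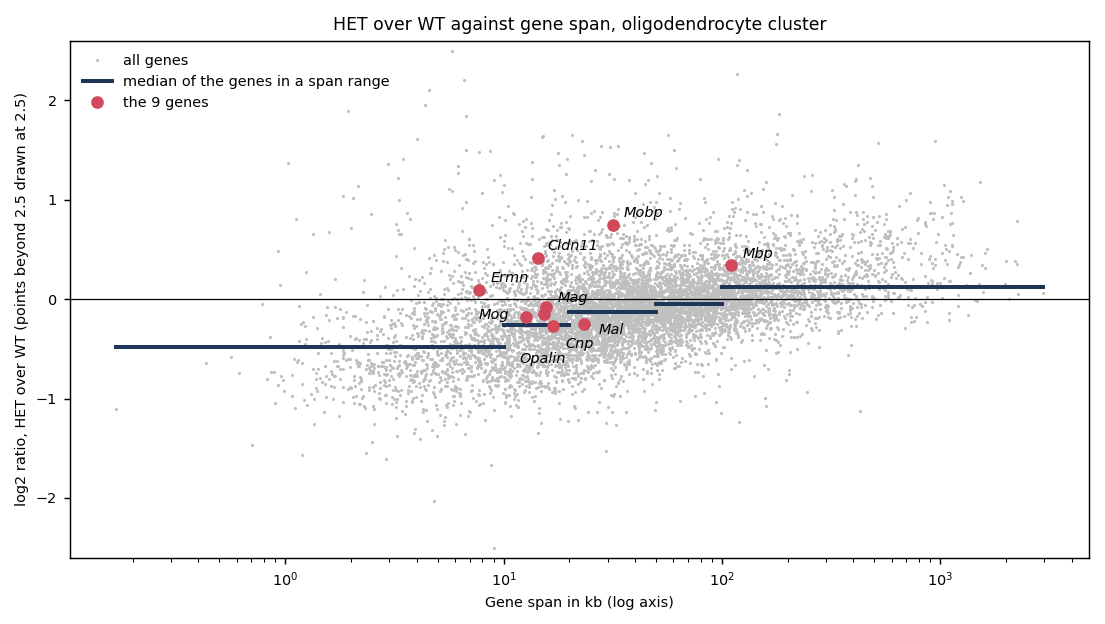
Log2 ratio of HET to WT in the oligodendrocyte cluster (vertical axis) against gene span in kb (horizontal log axis). Grey points are genes with at least 200 UMIs, dark lines the median of each span range, and red points the 9 members, of which *Mobp* (0.75), *Cldn11* (0.42) and *Ermn* (0.10) lie above the 75th percentile of their ranges.

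Other genes of the sheath and of the oligodendrocyte were read in the same nuclei, as lists by role. Of 24 other structural genes of myelin, 13 were higher and 11 lower in HET, 0 were past 0.5 upward and 4 downward, and the median was 0.05. They ran from *Tspan2*, a tetraspanin of the sheath, at 0.49 (348 CPM in WT, 490 CPM in HET) to *Cryab*, a small heat shock protein, at -1.26 (209 and 87.1 CPM). Of 20 genes of myelin lipid metabolism, 9 were higher and 11 lower, with 1 past 0.5 downward and a median of -0.03. *Hmgcs1*, an enzyme of cholesterol synthesis, was highest at 0.38, and *Gal3st1*, which makes sulfatide, was lowest at -0.62. Of 12 transcription factors of the lineage with at least 200 UMIs (13 in the list), 5 were higher and 7 lower, with 2 past 0.5 upward and 3 downward and a median of -0.20. *Olig2*, a lineage factor, was highest at 0.75 (24.1 and 40.7 CPM), and *Sox8* was lowest at -0.95 (108 and 55.8 CPM). *Sox10*, named after its values were seen, was 303 CPM in WT and 203 CPM in HET, a ratio of -0.58 (-0.68 to -0.48). *Myrf*, named likewise, was 145 and 125 CPM, a ratio of -0.22 (-0.35 to -0.08). Both factors were lower in HET. The 10.3 kb of *Sox10* put it in a span range with a median of -0.26, and its ratio lay under the 25th percentile of -0.50. *Myrf*, at 32.5 kb, lay between the 25th percentile of -0.34 and the median of -0.13 of its range.

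Of 22 other genes of the mature oligodendrocyte, 9 were higher and 13 lower in HET, with 1 past 0.5 upward, 6 downward and a median of -0.16. *Daam2*, a scaffold of Wnt signaling, was highest at 0.63 (311 CPM in WT, 480 CPM in HET), and *Neat1*, a nuclear long noncoding RNA, was lowest at -0.79 (1602 and 923 CPM). The shares of these lists past 0.5 compare with 7.11% upward and 15.5% downward of all genes. Markers of other stages and cell types differed between the libraries in the same nuclei. Markers of precursors (3 of 3 with at least 200 UMIs higher) summed to 135 CPM in WT and 221 CPM in HET, with *Tnr*, an extracellular matrix protein, highest at 1.19 (60.9 and 139 CPM) and *Vcan* lowest at 0.17. Markers of newly differentiating cells (2 higher and 1 lower of 3) summed to 891 and 999 CPM, from *Tcf7l2* at 0.51 to *Enpp6* at -0.14. *Pdgfra*, the defining receptor of precursors, named after its values were seen, was at 10.8 and 8.11 CPM. Neuronal markers (4 higher and 3 lower of 7 with at least 200 UMIs) summed to 361 and 427 CPM, from *Rbfox3* at 1.35 (15.4 and 39.3 CPM) to *Slc32a1* at -0.56. Astrocyte markers (2 higher and 2 lower of 4) summed to 223 and 253 CPM, from *Slc1a2* at 0.39 to *Aqp4* at -0.15. Microglial markers (2 higher and 2 lower of 4) summed to 137 and 85.7 CPM, from *Cx3cr1* at 0.31 to *C1qa* at -1.61. Endothelial markers summed to 33.4 and 19.4 CPM, fibroblast markers to 29.4 and 18.9 CPM, ependymal markers to 11.8 and 11.5 CPM and Schwann cell markers to 4.28 and 4.18 CPM, with *Pmp2*, which encodes a lipid-binding protein of peripheral myelin and was likewise named afterwards, at 0 UMIs in HET. Spans of these markers differed, with 408 kb for *Tnr*, 422 kb for *Rbfox3*, 110 kb for *Enpp6* and 2.9 kb for *C1qa*. In the lists above, *Cryab* spans 5.3 kb, *Sox8* 4.8 kb and *Olig2* 3.2 kb. The part of span in the ratios of these genes was not tested, nor was the part of these markers in the members' ratios.

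The genes whose pattern was most like that of the members were sought over 34 points, each a cluster or oligodendrocyte subcluster of 1 library, as the Pearson correlation with the mean standardized log2 level of the 9 genes. Among the 10 most alike were *Trf* (0.98), *Gatm*, *Gjc3*, *Aplp1*, *Tmem88b*, *Car2*, *Sept7*, *Phldb1* and *Stmn4* (0.96). The members themselves lay between 0.93 for *Cnp* and 0.99 for *Mog*. Among pairs of members, *Mag* and *Mog* were most alike (0.99) and *Mobp* and *Cnp* least (0.87). Points of a library share its depth and preparation, and most of the range comes from the contrast of oligodendrocytes with other cells, so these values describe the pattern and carry no test.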

How the data were processed

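Brainstem nuclei of 1 WT and 1 HET mouse were profiled with the 10x Chromium 3′ v3.1 kit. Per the labels, reads were aligned to mm10 by Cell Ranger (version not given in the sources used here), and the authors filtered and clustered nuclei in Seurat 4.1. The counts are raw UMIs per gene and nucleus as deposited, with no normalization. The percent values, which the authors deposited per nucleus, give the share of mitochondrial and ribosomal protein UMIs. The deposited doublet score, whose caller is not given in the sources used here, was used only to leave out the 5% highest scores in an alternative. Doublets had been removed before deposit. Clusters, subclusters and the second label were taken as deposited, and groups came from the sample labels.

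UMIs were summed per library over all nuclei (70301390 in WT, 66176778 in HET) or over a cluster (5843054 and 7887554 in oligodendrocytes) and scaled to 1000000. Levels have exact Poisson intervals, ratios exact conditional binomial intervals and shares Clopper-Pearson intervals, all at 95%. Background shares rest on genes with at least 200 UMIs in both libraries together in the set. All 9 members passed this minimum over all nuclei, in the oligodendrocyte cluster and its subclusters, in the neuronal clusters together and in astrocytes. The 9793 genes of the comparison over 12 clusters did not all reach it within each cluster, since only 8036 genes did in the oligodendrocyte cluster. In neuron.7 the 9 members together held 147 UMIs in WT and 110 in HET. Thinning gave, for each nucleus, the chance that 1000 UMIs drawn from it hold the gene, averaged over nuclei. Likeness used log2(CPM + 1). Spans and positions came from GENCODE vM21 and sequences from RefSeq.

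The members, the 14 lists and the tests were chosen with earlier results of these data known. Named genes are the members, the highest and lowest gene of each list and the 10 genes most alike, and others are stated as named after their values were seen. Some results that the rule would name are not reported here. The alternatives were other scalings, filters on nuclei, weights, minimum counts and a rank correlation. The procedure was tested on simulated data. Scripts ran in Python 3.11.15 with scipy 1.17.1, numpy 2.4.6 and pandas 2.3.3, and matplotlib 3.10.9 drew the plots. The other deposited experiments of the study were not analysed here.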

Additional observations from a re-analysis of the deposited data

Results flagged for a closer look

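Some members had ratios of opposite sign in different clusters. *Mag* had a log2 ratio of HET to WT of -0.08 in oligodendrocytes and of 0.32 in neuronal clusters, a difference of -0.396, but with the median of all genes set to 0 both were positive, at 0.02 and 0.41. *Cldn11* had a ratio of 0.42 in oligodendrocytes and of -0.36 in neuronal clusters, a difference of 0.777, and with -0.41 in astrocytes the difference was 0.828. *Cldn11* kept its opposite directions with the medians set to 0 (0.51, -0.27 and -0.37). In each case, with no such shift, the counting intervals lay on opposite sides of 0. These differences were not tested, since there is 1 library per genotype.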

How the results depend on the processing

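No paired analysis was possible because there is 1 library per genotype, and for the same reason no library could be left out. No member changed direction in the oligodendrocyte cluster under any alternative except *Mag*, which moved from -0.08 to 0.02 when the median of all genes was set to 0, and the median of the members there moved to 0.015. The ratio of *Mobp* in this cluster stayed between 0.67 and 0.84, that of *Mbp* between 0.33 and 0.44, and that of *Cldn11* between 0.36 and 0.51. Over all nuclei the values depended more on the choices. With the median of all genes set to 0, the median of the members was 0.417 and 1 member was lower, and with nuclei of at least 2000 UMIs 1 member was lower. With equal cluster weights the median was -0.061, with 4 members higher and 5 lower. A rank correlation in place of Pearson's kept 6 of the 10 genes most like the members. Depth limits mainly *Opalin*, *Cnp* and *Ermn* outside oligodendrocytes, where some clusters held fewer than 20 UMIs of a gene in a library. Joining subclusters 6 and 8 was added after seeing the data.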
